A study of Bos taurus with 6 samples.

Results

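The genes described here encode the enzymes that build cholesterol and fatty acids, together with the proteins that control them, in bovine articular chondrocytes given transforming growth factor β1 (TGF-β1). The 37 genes were chosen by name, and a gene counted as measured if at least 1 probe set on the array carried its symbol alone. Of the 37 genes, 31 were measured, out of 9173 genes with a symbol on the array, and they were read by 50 of 24016 probe sets. They comprised 15 of 18 genes of sterol synthesis, all 5 regulators, and 11 of 14 genes of fatty acid synthesis, elongation, desaturation and activation. No probe set used here carried the symbol of ACSL4, FADS1, HACD3, HSD17B7, IDI1 or SC5D.

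The cells were primary chondrocytes of cow joint cartilage in micromass culture, in which a dense drop of cells lays down cartilage matrix. After a night in culture, 3 cultures were given TGF-β1 at 5 ng/ml over 8 hours and 3 were labelled untreated, for which the treatment protocol names a vehicle. RNA was amplified and hybridised to Affymetrix bovine genome arrays, 1 for each culture. Replicates are numbered 1 to 3 in both groups. The study describes its cultures as coming from separate cows and as grown with or without TGF-β. That the number stands for the cow is probable, since the labels do not name the animal.

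Cholesterol is built from acetyl-CoA by way of mevalonate, squalene and lanosterol, and the fatty acid branch starts from the same acetyl-CoA, which is lengthened, given double bonds and tied to coenzyme A before it enters membranes, stored fat or other lipids. Both branches are known targets of the sterol regulatory element-binding proteins (SREBPs), transcription factors held in the endoplasmic reticulum by SCAP and the INSIG proteins while sterols are plentiful. Chondrocytes use both products for membranes, and in mice and humans a loss of the late sterol enzymes disturbs skeletal growth.

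All values are log2 signals as deposited, from which the median of the 6 arrays had been taken off for every probe set, and a gene's value is the mean of its probe sets. A value of 0 therefore marks the middle of the 6 arrays for that gene, levels cannot be compared between genes, and the labelled cell type cannot be checked by how strongly its markers are expressed. Differences are TGF-β minus untreated within a replicate. A gene is said to have risen or fallen if its mean difference passed an adjusted p of 0.05 in a limma model that held the replicate number (the paired fit, Benjamini-Hochberg over 9173 genes). In cultures measured whole, fewer cells of a kind and less RNA per cell cannot be told apart.

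In the paired fit, 6 of the 31 genes passed the threshold. The desaturase SCD and the acyl-CoA ligase ACSL3 rose, which is 2 of 31 genes, against 2.38% of all genes tested. The sterol enzymes EBP and DHCR7, the elongase ELOVL1 and the acyl-CoA ligase ACSL1 fell, which is 4 of 31, against 4.7% of all genes. The other 25 did not pass. The calls rest on the pairing: limma on the groups alone, without the replicate number, called 0 of the 31 and 0 of 9173 genes (0%), with 554 genes at an unadjusted p under 0.05, among them SCD on the higher side and FDFT1, TECR and ACSL1 on the lower. The unequal-variance test named in the study's methods also called 0 genes after Benjamini-Hochberg adjustment. That threshold is not the study's own: its gene list took a p under 0.05 with a cutoff on fold change, and no adjustment is named. The mean difference was below 0 in 23 of 31 genes, or 74.2%, and in 51.9% of all genes.

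**Figure D1:**
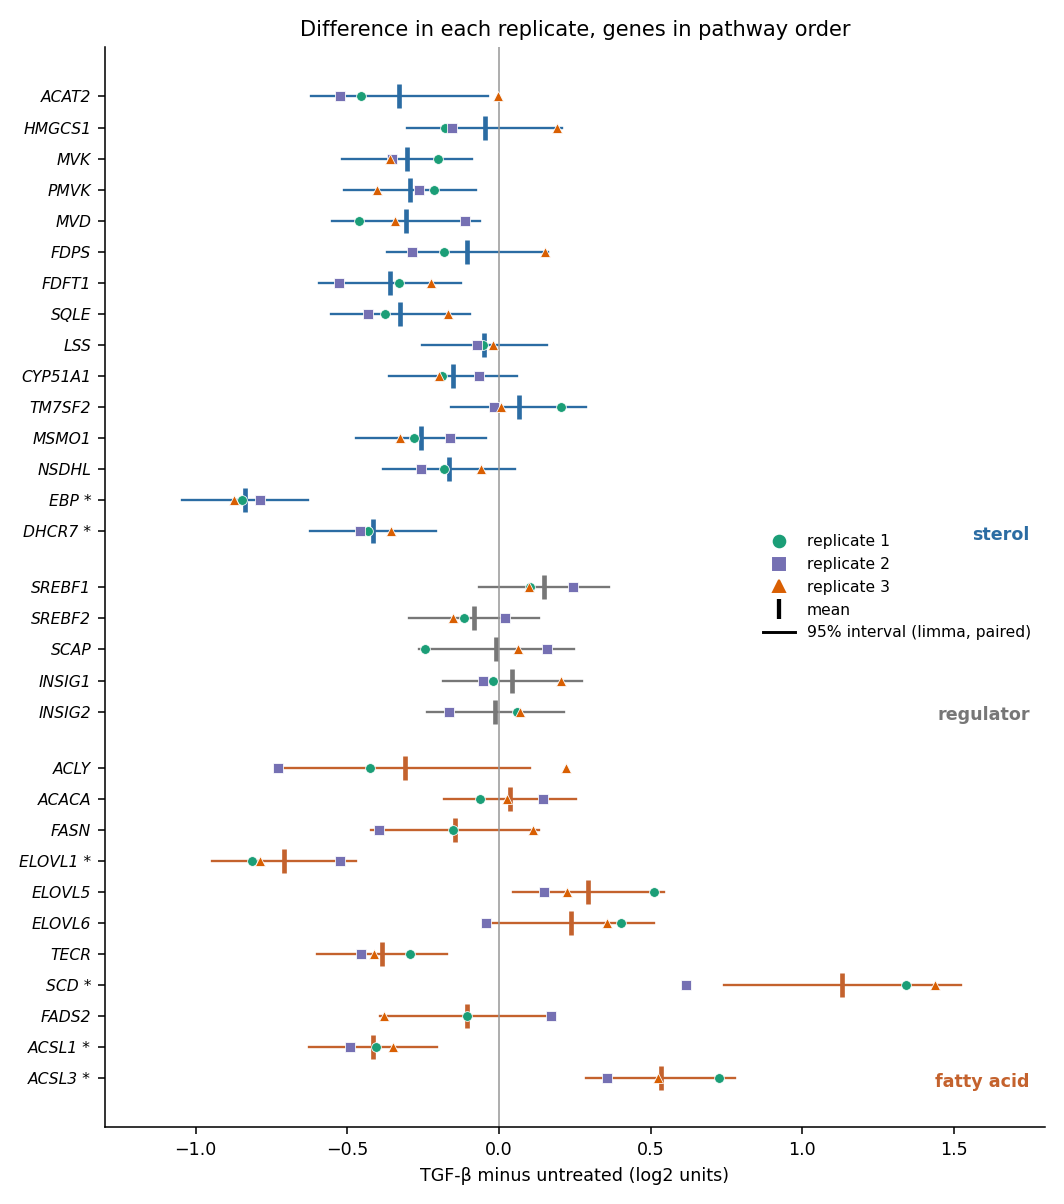
Difference between the TGF-β and the untreated array of each replicate (symbols, log2 units on the horizontal axis) for the 31 measured genes, top to bottom in pathway order, with the mean (upright tick) and the 95% interval of the paired limma fit (line); stars mark the 6 genes past the adjusted threshold. In the sterol branch 14 of 15 means lie left of 0, the 5 regulators lie close to 0, and the fatty acid branch reaches from -0.71 for ELOVL1 to 1.13 for SCD.

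The sterol branch was lower after TGF-β in 14 of 15 measured genes, with a median difference of -0.29, against -0.01 over all genes. Of the 15, 12 were lower in all 3 replicates, a pattern shown by 24.4% of all genes, and none was higher in all 3, against 19.9% of all genes. The median was -0.22, -0.27 and -0.20 in replicates 1, 2 and 3, where the medians over all genes were -0.02, 0.00 and -0.01. Only EBP and DHCR7 passed the threshold, so the shared direction is a description of these cultures and not a test.

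The first 6 measured enzymes carry acetyl-CoA through mevalonate to farnesyl diphosphate, and their median difference was -0.30, with 0 of 6 past the threshold. ACAT2, the thiolase that joins acetyl-CoA units, had differences of -0.46 and -0.52 in replicates 1 and 2 and of -0.0045 in replicate 3 (mean -0.33 ± 0.123 SE, n = 3 pairs, adjusted p = 0.175 by limma). HMGCS1, which makes the next intermediate, HMG-CoA, differed by -0.05 (adjusted p = 0.843), being lower in replicates 1 and 2 and higher by 0.19 in replicate 3. The kinases MVK and PMVK and the decarboxylase MVD, which act on mevalonate in turn, were lower in all 3 replicates. Their mean differences were -0.30, -0.29 and -0.31, with adjusted p = 0.101, 0.112 and 0.135 by limma. FDPS, which makes the farnesyl diphosphate shared by sterols and isoprenoids, differed by -0.18, -0.29 and 0.15 in replicates 1, 2 and 3, so that its sign was turned in replicate 3.

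The next 3 enzymes lead to lanosterol, and their median difference was -0.33. FDFT1, squalene synthase and the first enzyme committed to sterols, had values of -0.23, -0.24 and -0.16 in the TGF-β cultures of replicates 1 to 3, against 0.10, 0.29 and 0.07 in the untreated ones. All 3 TGF-β arrays lay below all 3 untreated arrays, yet the mean difference of -0.36 ± 0.0987 (SE, n = 3 pairs) did not pass, with adjusted p = 0.0826 by limma. SQLE, squalene epoxidase, was at -0.34, 0.01 and -0.18 in TGF-β cultures and at 0.04, 0.45 and -0.01 in untreated cultures, a mean difference of -0.33 (adjusted p = 0.0999). It was lower in each pair, but its groups overlapped, since replicate 2 stood above the others in both groups. LSS, which closes squalene epoxide into lanosterol, differed by only -0.05 (95% interval of -0.25 to 0.16).

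Of the enzymes that turn lanosterol into cholesterol, EBP, the sterol isomerase, had the largest decrease of the 31 genes. Its values were -0.90, -0.74 and 0.08 in the TGF-β cultures of replicates 1, 2 and 3, and -0.05, 0.05 and 0.95 in the untreated cultures. The groups overlapped because both arrays of replicate 3 stood above the other arrays of their group, while the differences within pairs, -0.85, -0.79 and -0.87, were nearly alike. EBP fell by 0.84 on the log2 scale (SE 0.0873, 95% interval -1.04 to -0.63, adjusted p = 0.00416 by limma), which is 1.79-fold lower after TGF-β.

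DHCR7, the reductase that forms cholesterol in the last step, showed the same evenness within pairs at a smaller size. It was at -0.81, 0.08 and -0.08 in TGF-β cultures and at -0.38, 0.54 and 0.28 in untreated cultures. Replicate 1 was the lowest array of each group, and the groups overlapped. DHCR7 fell by 0.41 (SE 0.0878, adjusted p = 0.0384 by limma), and with quantile-normalised arrays, or without replicate 1, 2 or 3, the adjusted p was 0.0735, 0.166, 0.134 and 0.0923, which ends the call.

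The other 4 measured enzymes of these last steps did not pass. MSMO1 and NSDHL, which remove methyl groups from the sterol ring, differed by -0.26 and -0.17, and the lanosterol demethylase CYP51A1 by -0.15, all 3 of them lower in every pair. TM7SF2, a sterol reductase, was the only sterol gene with a mean above 0 (0.06, adjusted p = 0.750). Its values were 0.11, 0.09 and -0.22 in TGF-β cultures and -0.09, 0.11 and -0.23 in untreated cultures, so that the difference came from replicate 1 alone, and the groups overlapped.

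**Figure D2:**
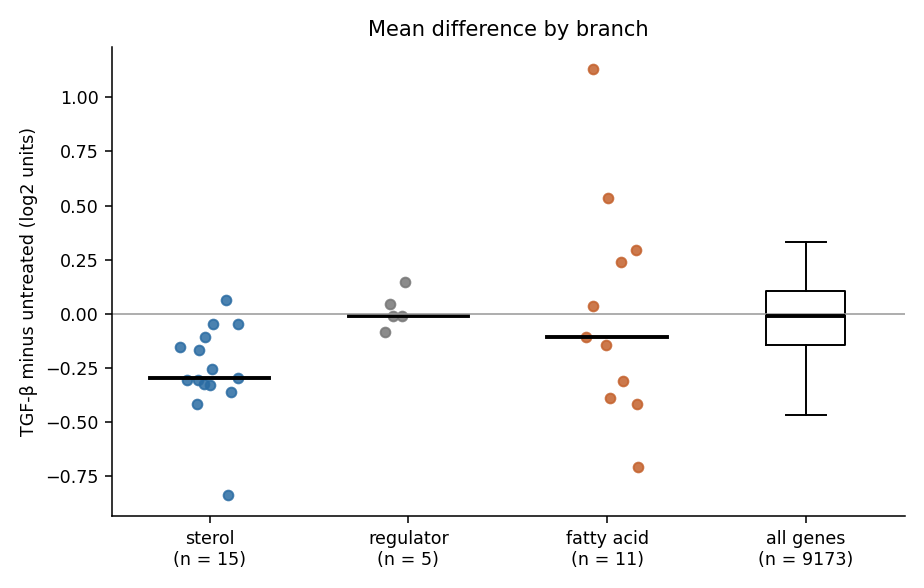
Mean difference of each measured gene (points, TGF-β minus untreated, log2 units) by branch, with the branch median as a bar; the box at the right gives the quartiles and, as whiskers, the 5th and 95th percentiles of all 9173 genes. The sterol median of -0.29 lies below the lower quartile of all genes (-0.14), and the regulators and the fatty acid branch have medians of -0.01 and -0.10.

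None of the 5 regulators passed the threshold, and their median difference was -0.01, with single means between -0.08 and 0.15. SREBF1 encodes the SREBP known mainly for fatty acid genes, and SREBF2 the one known mainly for sterol genes. SREBF1 had values of 0.18, 0.13 and -0.01 in the TGF-β cultures and of 0.08, -0.12 and -0.11 in the untreated cultures. It was the only regulator higher in all 3 pairs, by 0.10, 0.24 and 0.10, with groups that overlapped (mean 0.15, 95% interval -0.07 to 0.36, adjusted p = 0.399 by limma). SREBF2 was at 0.03, 0.05 and -0.18 in TGF-β cultures and at 0.15, 0.03 and -0.03 in untreated cultures, a mean difference of -0.08 (95% interval -0.30 to 0.13), with no common sign over the pairs.

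SCAP, the escort that carries SREBPs to the Golgi, was at -0.23, 0.13 and 0.01 in TGF-β cultures and at 0.01, -0.03 and -0.05 in untreated cultures. Its mean difference of -0.01 held a difference of -0.24 in replicate 1 beside differences of 0.16 and 0.06 in the other pairs. INSIG1, which retains SCAP and is itself a well-known SREBP target, had values of -0.01, 0.39 and -0.27 with TGF-β and 0.01, 0.44 and -0.48 without. For INSIG1 the spread between replicates was far wider than the mean difference of 0.04 (95% interval -0.19 to 0.27). INSIG2, its relative, was at 0.03, -0.24 and 0.14 in TGF-β cultures and at -0.03, -0.07 and 0.07 in untreated cultures, with a mean difference of -0.01 (95% interval -0.24 to 0.21). The intervals of all 5 regulators include 0 and reach no further than 0.36 on either side.

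In the fatty acid branch 2 of 11 genes rose, against 2.38% of all genes, 2 fell, against 4.7%, and 7 did not pass. The median difference was -0.10. In replicates 1, 2 and 3 the median was -0.11, -0.04 and 0.11, and without replicate 3 it was 0.03, so its sign changed with the replicates taken. Of its 11 genes, 3 (27.3%) were higher and 3 (27.3%) lower in all 3 pairs, near the 19.9% and 24.4% of all genes.

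The enzymes that make the acyl chain did not pass. ACLY, which supplies cytosolic acetyl-CoA from citrate, had values of -0.37, -0.62 and 0.16 in TGF-β cultures and of 0.06, 0.11 and -0.06 in untreated cultures. It differed by -0.43 and -0.73 in replicates 1 and 2 and by 0.22 in replicate 3 (mean -0.31, adjusted p = 0.356 by limma). FASN, fatty acid synthase, showed the same turn, with differences of -0.15, -0.40 and 0.11 (mean -0.14, adjusted p = 0.534). ACACA, the carboxylase that makes malonyl-CoA, differed by 0.04 (95% interval -0.18 to 0.25).

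SCD, the stearoyl-CoA desaturase that puts the first double bond into saturated acyl chains, had the largest increase of the 31 genes and ranked 56th among the increases of all genes. Its values were 0.63, 0.34 and 0.27 in the TGF-β cultures of replicates 1, 2 and 3, and -0.71, -0.27 and -1.17 in the untreated cultures. No TGF-β array reached down to an untreated one, and the untreated arrays were the more scattered. SCD rose by 1.34, 0.62 and 1.44 in the pairs, a mean of 1.13 (SE 0.164, 95% interval 0.74 to 1.52, adjusted p = 0.0111 by limma), or 2.19-fold. SCD stands on the list of regulated genes drawn up from these same arrays, so that list is not independent evidence. The other desaturase measured among the 31 genes, FADS2, which acts on polyunsaturated chains, differed by -0.11, 0.17 and -0.38 (mean -0.10, adjusted p = 0.671). Outside the 31 genes, the desaturase SCD5 fell, as given below, and FADS3 differed by 0.005 (adjusted p = 0.981 by limma).

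ELOVL1, which elongates saturated and monounsaturated chains to very long lengths, was at -0.33, -0.77 and 0.24 in TGF-β cultures and at 0.48, -0.24 and 1.03 in untreated cultures. As for EBP, the groups overlapped because replicate 3 stood high in both, and each pair differed the same way, by -0.81, -0.52 and -0.79. ELOVL1 fell by 0.71 (SE 0.0996, adjusted p = 0.0102 by limma), or 1.63-fold, and after quantile normalisation of the arrays the adjusted p was 0.0703. TECR, the reductase that closes each round of elongation, had values of -0.08, -0.42 and -0.04 in TGF-β cultures and of 0.21, 0.04 and 0.37 in untreated cultures. All of its TGF-β arrays lay below its untreated arrays, and its mean difference of -0.39 ± 0.0900 (SE, n = 3 pairs) missed the threshold narrowly (adjusted p = 0.0514 by limma). The elongases ELOVL5, which acts on polyunsaturated chains, and ELOVL6, which lengthens palmitate, had positive mean differences of 0.29 and 0.24 that did not pass (adjusted p = 0.158 and 0.286). ELOVL5 was higher in all 3 pairs, and its difference exceeded that of ELOVL1 by 1.33, 0.67 and 1.01 in replicates 1, 2 and 3.

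ACSL3 and ACSL1, ligases that tie long-chain fatty acids to coenzyme A, went opposite ways. The related ligases ACSL5 and ACSL6, read from a further list, differed by -0.03 and -0.08. Neither of those passed (adjusted p = 0.898 and 0.757 by limma). ACSL3, a ligase of the endoplasmic reticulum and of lipid droplets, had values of 0.66, 0.37 and -0.11 in TGF-β cultures, against -0.06, 0.02 and -0.63 in untreated cultures. Replicate 3 stood lowest in both groups, which made the groups overlap. ACSL3 rose by 0.72, 0.35 and 0.52 in the pairs, a mean of 0.53 (SE 0.104, adjusted p = 0.0297 by limma), or 1.45-fold.

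ACSL1, best known from fat, liver and heart, was at -0.04, -0.45 and -0.26 in TGF-β cultures and at 0.36, 0.04 and 0.09 in untreated cultures. All 3 TGF-β arrays lay below all 3 untreated arrays. ACSL1 fell by 0.41 (SE 0.0889, adjusted p = 0.0400 by limma), or 1.33-fold. In each pair the difference of ACSL3 exceeded that of ACSL1, by 1.13, 0.84 and 0.87. Neither call held in every alternative: with quantile-normalised arrays, or without replicate 1, 2 or 3, the adjusted p was 0.0715, 0.143, 0.0628 and 0.0768 for ACSL3 and 0.0657, 0.156, 0.142 and 0.0926 for ACSL1. Those of SCD and EBP held in all 8 alternatives that kept the pairing, with adjusted p of 0.0112 to 0.0347 for SCD and of 0.00422 to 0.0264 for EBP.

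**Figure D3:**
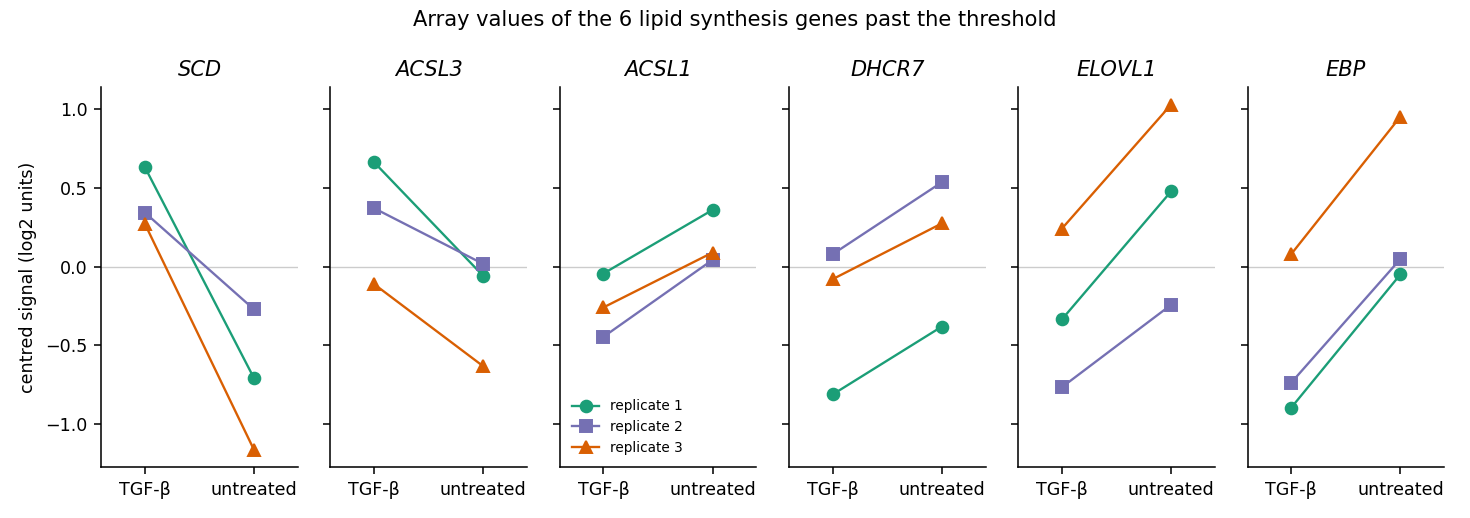
Centred log2 signal (vertical axis) of the 6 genes past the threshold on each array, with TGF-β at the left and untreated at the right of each panel and a line joining the arrays of a replicate. SCD and ACSL3 are higher with TGF-β in every pair, and ACSL1, DHCR7, ELOVL1 and EBP are lower in every pair, while replicate 3 stands apart in both groups for EBP and ACSL3.

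Groups that did not overlap were thus few. SCD was the 1 gene of 31 whose TGF-β arrays were all higher than its untreated ones, against 5.16% of all genes, and FDFT1, TECR and ACSL1 were the 3 with all TGF-β arrays below, or 9.68%, against 5.91% of all genes. In the other 4 called genes, EBP, DHCR7, ELOVL1 and ACSL3, the groups overlapped, and the direction was shared by the 3 pairs.

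The genes also varied between the replicates. A limma F-test of the replicate number called 12 of 31 genes, or 38.7%, against 34.7% of all genes. Over the 31 genes the median of replicate 3 minus the mean of replicates 1 and 2 was 0.16 with TGF-β and -0.04 without. For some genes replicate 3 stood apart in both groups, and 6 of them are given here. ELOVL6 was higher in replicate 3 by 1.5 in TGF-β cultures and by 1.33 in untreated cultures (adjusted p = 0.000729 for the replicate number), NSDHL by 0.95 and 0.79, EBP by 0.90 and 0.95, and ELOVL1 by 0.79 and 0.91. ACSL3 differed there by -0.63 and -0.61, and INSIG1 by -0.46 in TGF-β cultures and -0.70 in untreated cultures. For these 6 genes the sign was the same in both groups. CYP51A1, also called for the replicate number, differed in replicate 3 by only -0.10 and -0.03.

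ACLY was 0.66 higher there in TGF-β cultures and differed by -0.14 in untreated cultures, and SCD differed by -0.22 with TGF-β and by -0.67 without. In replicate 3, 14 of the 31 genes were higher after TGF-β, against 7 and 8 in replicates 1 and 2. Over all 9173 genes the counts were 4323 in replicate 3, and 4218 and 4617 in replicates 1 and 2. The share of the 31 genes was thus near that of all genes in replicate 3, and below it in replicates 1 and 2. HMGCS1, FDPS, INSIG1, ACLY and FASN, 5 genes in all, were each lower in replicates 1 and 2 and higher in replicate 3. The share of all genes with this pattern was not counted. This difference between replicates was not tested, since each pair has 1 array per group.

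Other genes set replicate 3 apart too. The median of 27 cell cycle genes was higher there by 2.30 in TGF-β cultures and by 2.45 in untreated cultures, and FABP4, a fatty acid carrier of fat cells, was at 3.06 and 4.60 on the TGF-β and the untreated array of replicate 3, against -0.83 to -0.01 on the other 4. The median of all 9 adipocyte markers was higher in replicate 3 by 0.12 in TGF-β cultures and by 0.14 in untreated cultures, LIPE was higher by 0.51 and 0.69, and ADIPOQ differed by -0.41 and -0.87. The median of the 7 measured chondrocyte markers differed in replicate 3 by -0.56 with TGF-β and by -0.73 without, with COL2A1 at -0.05 and 0.12. Of these 7, the F-test of the replicate number called 6 (85.7%), against 34.7% of all genes. The part of the cell cycle genes, of FABP4 and of the chondrocyte markers in the values of replicate 3 was not tested. After TGF-β the cell cycle genes had a median difference of -0.14, and 2 of 27 fell (7.41%), near the 4.7% of all genes.

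**Figure D4:**
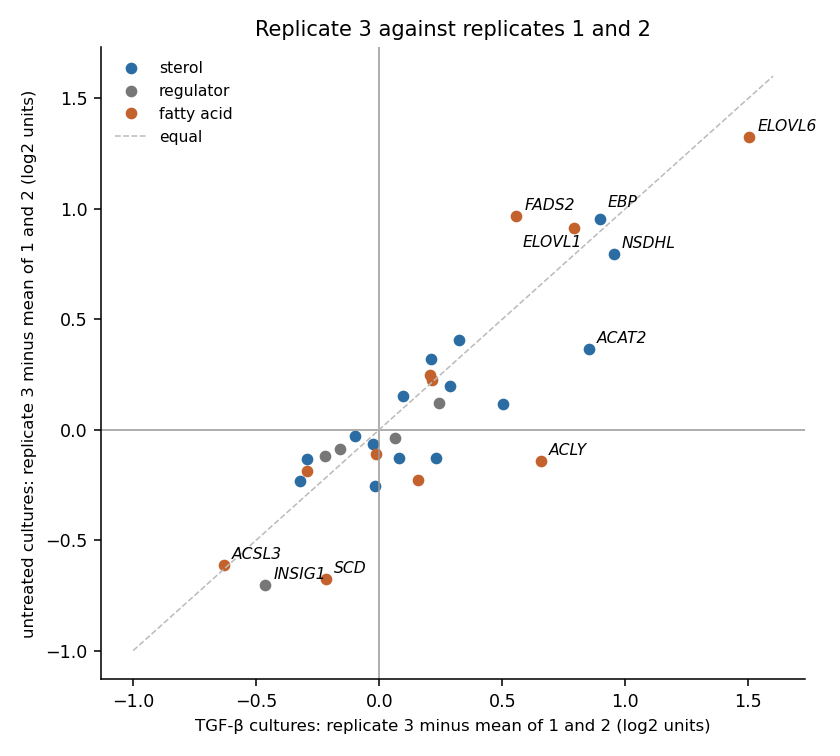
Replicate 3 minus the mean of replicates 1 and 2 for the 31 genes, in TGF-β cultures (horizontal axis) and in untreated cultures (vertical axis), both in log2 units; colours give the branch, and the dashed line marks equal values. ELOVL6, NSDHL, EBP and ELOVL1 are high and ACSL3 and INSIG1 low in replicate 3 in both groups, while ACLY lies off the line, at 0.66 with TGF-β and -0.14 without.

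Of the 31 genes, 10 were read by more than 1 probe set, and averaging hid some disagreement. Over single probe sets, 2 of the 50 rose (1 each of SCD and ACSL3), against 2.44% of all probe sets, and 4 fell, against 3.46%. The 4 were the single probe sets of EBP and ELOVL1 and 1 of 3 each for MVK and FDFT1. MVK had differences of -0.53, -0.22 and -0.16 over its probe sets, the first with adjusted p = 0.0330 by limma. The spread was wider for FDFT1, at -0.76, -0.40 and 0.08, the first with adjusted p = 0.0262, so the third did not share the direction of the others. The first probe sets of MVK and FDFT1 differed most in replicate 2, by -0.75 and -1.24. The 3 of ACSL3 were all positive, at 0.71, 0.46 and 0.44, with adjusted p = 0.00676 for the first. DHCR7 and ACSL1, with a single probe set each, had adjusted p = 0.0555 and 0.0570 when all 24016 probe sets were adjusted for. Among the regulators, the 4 probe sets of SREBF1 lay between 0.07 and 0.25, and the pair of SREBF2 at -0.22 and 0.05.

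**Figure D5:**
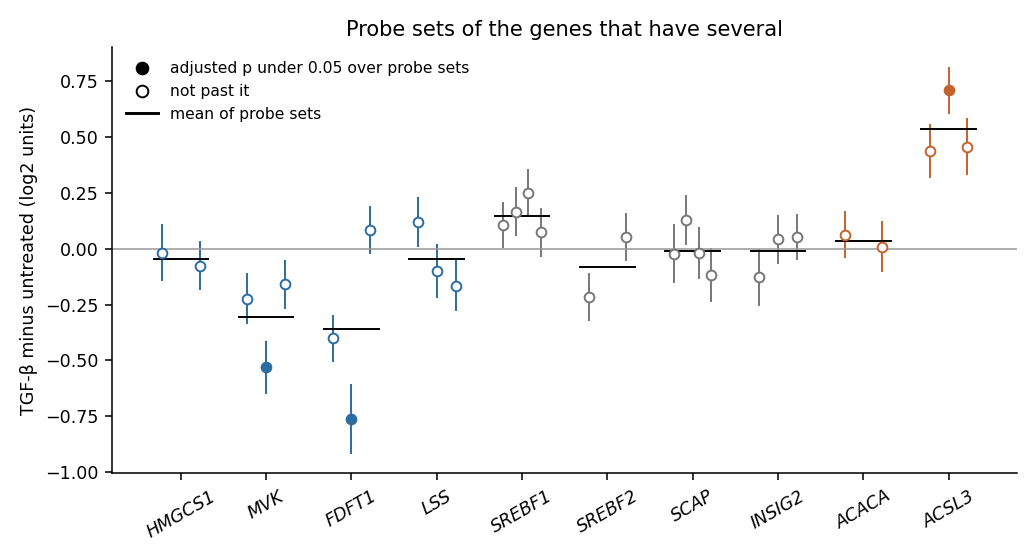
Mean difference of every probe set (points, TGF-β minus untreated, log2 units, bars are SE of the paired limma fit) of the 10 genes with more than 1 probe set; filled points passed an adjusted p of 0.05 over all probe sets, and black bars are the gene's mean. The probe sets of ACSL3 all lie above 0, and those of FDFT1 reach from -0.76 to 0.08.

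Genes next to these pathways were read from further lists. Of 17 other measured genes that supply, elongate or desaturate fatty acids, 4 fell, against 4.7% of all genes, and 0 rose, against 2.38%, with a median difference of -0.08. They were ACSS2, which makes acetyl-CoA from acetate (-0.87, adjusted p = 0.0182 by limma), the citrate carrier SLC25A1 (-0.64, adjusted p = 0.00993), MID1IP1, an activator of acetyl-CoA carboxylase (-0.56, adjusted p = 0.0197), and SCD5, the other desaturase of the SCD family (-0.52, adjusted p = 0.0427). SCD5 moved against SCD, whose difference was larger by 1.90, 1.35 and 1.70 in replicates 1, 2 and 3.

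Of 8 measured genes of sterol efflux, esterification and the oxysterol receptors, 1 fell, against 4.7% of all genes: LCAT, which esterifies cholesterol on lipoproteins, had values of -0.24, -0.60 and -0.80 in TGF-β cultures and of 1.06, 0.79 and 0.24 in untreated cultures. Its groups did not overlap, and LCAT fell by 1.24 (adjusted p = 0.00192 by limma). Of 16 genes of fatty acid oxidation, 1 also fell, against 4.7% of all genes: the dehydrogenase HADH (-0.59, adjusted p = 0.0290 by limma), with a list median of -0.18. None of 11 other genes of sterol synthesis, uptake and isoprenoids passed (median -0.03), and none of 7 genes of SREBP processing and degradation (median 0.10).

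Of the 7 measured chondrocyte markers 1 rose, against 2.38% of all genes, and 0 fell, against 4.7%. It was the matrix protein COMP (0.92, adjusted p = 0.0434 by limma), with differences of 1.055, 0.28 and 1.43 in replicates 1, 2 and 3 and groups that overlapped. The median of the 7 was -0.10, with COL2A1 at 0.03 and ACAN at -0.17. The markers of adipocytes (9 measured), macrophages (6) and endothelium (7) had 0 genes past the threshold and medians of -0.02, 0.04 and 0.01. Over the 9 adipocyte markers the median level was -0.07 to 0.05 on TGF-β arrays and -0.10 to 0.08 on untreated arrays. Centring leaves their absolute level unknown, and their part in the lipid synthesis values was not tested.

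On the array side, replicate 3 separated from the rest on the first principal component (56.4% of the variance). The TGF-β array of replicate 2 had the maker's spike-in controls at a median of 1.53, against -0.17 to 0.06 on the other 5, and without replicate 2 the mean difference of SCD was 1.39 (adjusted p = 0.0114 by limma). Deviations from the group means of arrays with the same number correlated at r = 0.740, 0.694 and 0.845 across probe sets, against -0.683 to 0.185 for other pairs. Deviations from a mean of 3 arrays sum to 0, which pulls the values for other pairs down. The contrast is therefore a description and does not show that the number is the cow.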

How the data were processed

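The authors made the values from the scanner files in GeneSpring with Robust Multichip Average, and deposited them as log2 signals centred on each probe set's median over the 6 arrays (largest absolute median 5e-07). Levels are therefore lost, no filter on dim probe sets could be applied, and precision is limited by 3 arrays per group. The values were used as deposited.

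Of 24128 probe sets, 112 controls were left out. Among the 24016 tested, 13292 had 1 symbol in the array annotation (13263 updated through the Entrez ID), 86 several and 10638 none, and 24 were named from the study's own list of regulated genes. Probe sets of a gene were averaged, which gave 9173 genes. Differences were fitted 2-sided with limma 3.58.1 (R 4.3.3), with the replicate number as a term, and adjusted by Benjamini-Hochberg over all genes at 0.05. Arrays with the same number deviated together, with r = 0.740, 0.694 and 0.845, which describes the pairing and is not a test of it. The study's methods tested the groups with an unequal-variance test, which was run as an alternative. The fits were tried on simulated data with known changes and noise drawn independently for every gene and array. The real arrays may share shifts that such noise lacks, so this is no test of the calls made here. The 15 pairs of arrays shared at most 56 identical values, so none was a copy. Figures were drawn with matplotlib 3.10.9.

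Every gene of the pathways is named. Array values are given for genes past the threshold, for the regulators and for the 2 genes of each branch with the smallest p in each direction, and were added for FDFT1, SQLE, TECR, ACLY and LCAT after the values were seen. The genes and lists were chosen with earlier results of these data known. No sequence or position is given, because no genome or sequence table was used here.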

Additional observations from a re-analysis of the deposited data

How the results depend on the processing

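Without the replicate block, limma called 0 of the 31 genes as higher and 0 as lower, and the study's unequal-variance test did the same after adjustment. Both called 0 of all 9173 genes. At an unadjusted p that test had 1 higher (SCD) and 1 lower (FDFT1), against 200 higher and 227 lower over all genes. Limma on the groups alone at an unadjusted p, an alternative added after the data were seen, had 1 higher and 3 lower. Over all genes it had 220 higher and 334 lower. With quantile-normalised arrays the paired fit called 1 higher (SCD) and 1 lower (EBP). Over all genes it called 143 higher and 216 lower, where the main fit called 218 and 431. Leaving out replicate 1, 2 or 3, which removes both arrays of a pair and leaves 1 residual degree of freedom per gene beside limma's pooled spread, gave 1 higher (SCD) and 2 lower (EBP and ELOVL1) each time. Over all genes these 3 fits called 125, 106 and 179 higher, and 212, 122 and 284 lower. In them the sterol median ranged from -0.27 to -0.24, the fatty acid median from -0.104 to 0.032 and the regulator median from -0.044 to 0.076, so the last 2 changed sign. Centring the arrays on their medians, taking the median of probe sets, using the array annotation alone and a robust prior kept 2 higher and 4 lower. Over all genes those alternatives called 204 to 217 higher and 419 to 424 lower. No mean difference of a called gene changed sign in any alternative. The filter on dim probe sets was not run, since centred values hold no level. The cause of the lost calls was not tested.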
